A study of Homo sapiens with 18 samples.

Results

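KDM8, TMEM143, TCEANC and RCBTB2 are 4 of the 58870 genes in the count table, chosen because their RNA was about 2-fold or more higher with a guide against NRF1 exon 7 than with an intergenic guide in each of 3 base editors. Polyadenylated RNA was sequenced from 6 groups of 3 libraries of HEK293T, a transformed line of human embryonic kidney cells. Base editors are fusions of a Cas9 nickase and a deaminase that rewrite individual bases where a guide RNA directs them. SaABE was ABE8e, an adenine deaminase, fused to the nickase of Staphylococcus aureus Cas9, SpABE was ABE8e fused to that of Streptococcus pyogenes, and SpCBE joined evoCDA1, a cytosine deaminase, to the S. pyogenes enzyme. They were each paired with a guide at a splice site of NRF1 exon 7 (NRF1 guide) or with a guide at an intergenic site (intergenic guide), giving the groups SaABE NRF1, SpABE NRF1, SpCBE NRF1, SaABE intergenic, SpABE intergenic and SpCBE intergenic. All 18 libraries came from 750000 cells that were given a plasmid, held in puromycin for 48 hours and lysed at 72 hours after transfection. The NRF1 guide differed in sequence between the editors, while SpABE and SpCBE used the same intergenic guide and SaABE another. By sequence, the NRF1 guide of SaABE lay at the splice donor, the end of exon 7. Those of SpABE and SpCBE lay at the acceptor, its start. Transfected cells were selected as a population, so each library averaged edited and unedited cells, and fewer cells with a transcript cannot be told apart from less RNA per cell.

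NRF1 is a transcription factor that binds GC-rich palindromes in promoters, many of them of genes for mitochondria, chromatin and the cell cycle, and its exon 7 is alternatively spliced. The 4 genes have unlike products. KDM8, also called JMJD5, is an iron-dependent oxygenase of the JmjC family, described both as a histone demethylase and as an arginine hydroxylase. TCEANC carries the N-terminal domain found in TFIIS, and TFIIS is the factor that lets a stalled RNA polymerase II resume elongation. TMEM143 is a little studied membrane protein found in mitochondria. RCBTB2 joins RCC1 repeats, the propeller fold of the nucleotide exchange factor RCC1, to a BTB domain, which in other proteins recruits partners such as ubiquitin ligases.

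The libraries held 28101094 to 40687447 estimated counts. Levels are given as CPM, the count share scaled to a common library total after TMM scaling of the libraries, and fold changes as log2 of NRF1 guide over intergenic guide from edgeR's quasi-likelihood fit with its standard error (SE). NRF1 itself, the targeted gene, averaged 39.7 ± 2.39 CPM with the NRF1 guide and 28.5 ± 3.19 CPM with the intergenic guide (SD, n = 9 each). The log2 fold change was 0.49 (SE 0.04, adjusted p = 3.61e-09 by edgeR with Benjamini-Hochberg adjustment). The ranges did not overlap in any editor, and the share of all genes so separated was not counted. A gene count adds transcripts with and without exon 7 and so does not show skipping. Summed markers of the HEK293 line (PAX2, LHX1, NEFM and GATA3) stood at 85.6 to 103.6 CPM with the NRF1 guide and 92.3 to 105.7 CPM with the intergenic guide. Most of this was NEFM, which averaged 77.8 CPM with the NRF1 guide and 79.1 CPM with the intergenic guide. Summed blood markers (PTPRC, HBB, CD3E and LYZ) reached at most 0.20 CPM with the NRF1 guide and 0.12 CPM with the intergenic guide, and summed hepatocyte markers (ALB and APOA1) at most 0.37 CPM with the NRF1 guide and 0.51 CPM with the intergenic guide. Summed fibroblast markers (COL1A1, COL1A2, DCN and LUM) stood at 13.99 to 20.6 CPM with the NRF1 guide and 17.1 to 23.2 CPM with the intergenic guide, nearly all of it COL1A1, with COL1A2 and DCN at 0 to 4 counts. COL1A1 was 0.18 lower with the NRF1 guide on the log2 scale (adjusted p = 0.000411 by edgeR), and its part in the values of the 4 genes was not tested.

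KDM8 (ENSG00000155666.11, chr16:27203508-27221768 of hg38, plus strand) showed the largest difference of the 4. In SaABE cells it stood at 20.6, 22.9 and 25.2 CPM with the NRF1 guide and at 5.67, 5.86 and 7.43 CPM with the intergenic guide. In SpABE cells the NRF1-guide libraries held 26.1, 26.0 and 26.5 CPM and the intergenic-guide libraries 6.83, 7.22 and 6.86 CPM. In SpCBE cells the values were 25.3, 24.8 and 26.9 CPM with the NRF1 guide and 6.02, 6.36 and 7.28 CPM with the intergenic guide. The ranges of the guides were far apart, and the lowest NRF1-guide library, SaABE replicate 1, was still well over the highest intergenic one. The log2 fold change was 1.86 (SE 0.09) in SaABE, 1.91 (SE 0.08) in SpABE and 1.97 (SE 0.08) in SpCBE, or 3.63-fold, 3.75-fold and 3.93-fold. These rested on 606 to 1045 counts per library with the NRF1 guide and 167 to 276 with the intergenic guide.

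TMEM143 (ENSG00000161558.11, chr19:48332356-48364059, minus strand) was the next in size and the most even between editors. With SaABE it measured 24.6, 28.3 and 23.4 CPM under the NRF1 guide and 9.07, 9.45 and 8.91 CPM under the intergenic guide. With SpABE the NRF1 guide gave 25.4, 25.8 and 26.1 CPM and the intergenic guide 8.38, 8.84 and 9.80 CPM. With SpCBE the NRF1 guide gave 24.1, 22.4 and 24.2 CPM and the intergenic guide 7.66, 8.85 and 8.44 CPM. The 9 NRF1-guide libraries formed a band from 22.4 to 28.3 CPM, clear of the intergenic band from 7.66 to 9.80 CPM. The fold was 2.77 in SaABE, 2.86 in SpABE and 2.83 in SpCBE, and the log2 effects of any 2 editors differed by at most 0.04 (SE 0.10). Counts were 723 to 1029 per library with the NRF1 guide and 267 to 374 with the intergenic guide.

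TCEANC (ENSG00000176896.8, chrX:13653112-13681964, plus strand) was the least abundant of the 4, at 206 to 359 counts per library with the NRF1 guide and 100 to 190 with the intergenic guide. SaABE cells held 7.55, 7.71 and 7.71 CPM with the NRF1 guide and 3.90, 4.28 and 3.30 CPM with the intergenic guide. SpABE cells held 8.16, 8.22 and 7.90 CPM with the NRF1 guide and 3.96, 4.63 and 4.68 CPM with the intergenic guide. SpCBE cells held 9.78, 9.53 and 9.12 CPM with the NRF1 guide and 4.63, 4.49 and 3.84 CPM with the intergenic guide. The 2 guides did not overlap, and the NRF1-guide level stepped up from SaABE to SpABE to SpCBE without overlap between these groups, while the 3 intergenic groups overlapped each other. Editor differences were common among genes. Between NRF1-guide groups, 38%, 44.8% and 35.5% of genes tested passed an adjusted p of 0.05 by edgeR. These shares are for SaABE minus SpABE, SaABE minus SpCBE and SpABE minus SpCBE. The share of genes without overlap was not counted. The log2 fold change was 1.00 (SE 0.10) in SaABE, 0.87 (SE 0.09) in SpABE and 1.13 (SE 0.09) in SpCBE. In SpABE this is 1.83-fold, under the 2-fold of the choosing rule.

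RCBTB2 (ENSG00000136161.12, chr13:48488963-48533256, minus strand) had the smallest difference. SaABE libraries measured 18.03, 16.9 and 16.1 CPM with the NRF1 guide and 9.92, 9.82 and 8.78 CPM with the intergenic guide. SpABE libraries measured 16.3, 15.3 and 17.3 CPM with the NRF1 guide and 7.66, 7.64 and 7.42 CPM with the intergenic guide. SpCBE libraries measured 18.4, 18.6 and 17.2 CPM with the NRF1 guide and 8.71, 9.98 and 9.69 CPM with the intergenic guide. Again no library of one guide fell within the range of the other guide, and the SpABE intergenic libraries were the lowest of all 18. The log2 fold change was 0.84 (SE 0.07) in SaABE, 1.11 (SE 0.07) in SpABE and 0.93 (SE 0.07) in SpCBE, so that SaABE at 1.79-fold and SpCBE at 1.91-fold were below 2-fold. Counts ran from 452 to 684 with the NRF1 guide and from 262 to 422 with the intergenic guide.

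**Figure D1:**
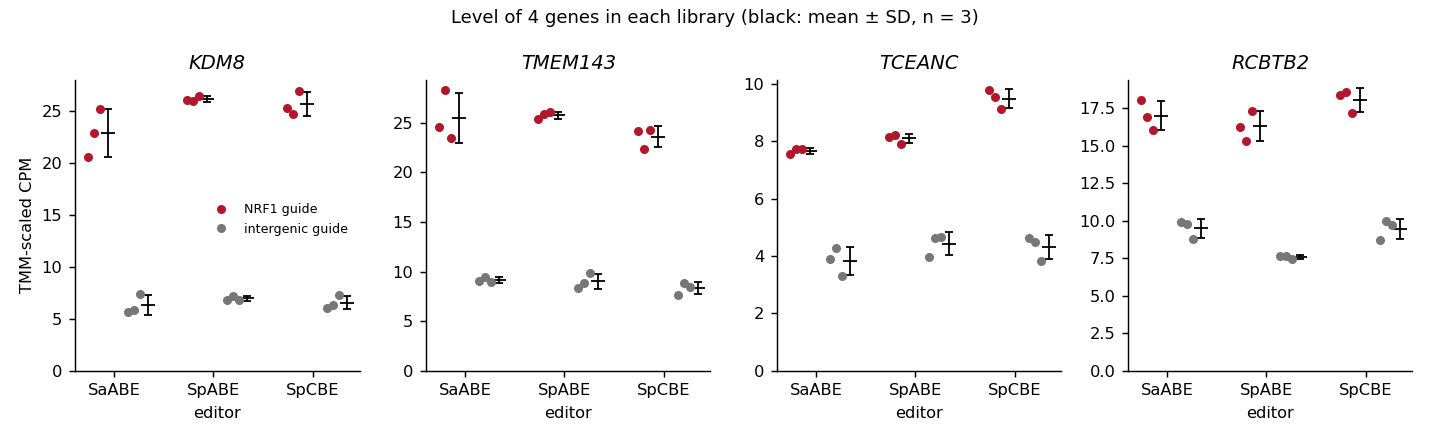
TMM-scaled CPM (y axis, from 0) of KDM8, TMEM143, TCEANC and RCBTB2 by editor (x axis), each red point an NRF1-guide library, each grey point an intergenic-guide library, and black bars the mean ± SD of 3 libraries. Red points lie above all grey points in every panel, and the gap is widest for KDM8, where NRF1-guide libraries start at 20.6 CPM and intergenic-guide libraries end at 7.43 CPM.

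With the 3 editors fitted together, KDM8 had a log2 fold change of 1.92 (SE 0.05), TMEM143 of 1.50 (SE 0.04), TCEANC of 1.00 (SE 0.06) and RCBTB2 of 0.96 (SE 0.05). Per kilobase of annotated exon, the mean level of TMEM143 was 7.08 CPM per kilobase with the NRF1 guide and 2.50 with the intergenic guide. KDM8 stood at 6.19 with the NRF1 guide and 1.64 with the intergenic guide. RCBTB2, level with TMEM143 under the intergenic guide, stood at 4.83 with the NRF1 guide and 2.50 with the intergenic guide, and TCEANC at 1.50 with the NRF1 guide and 0.75 with the intergenic guide. On this scale KDM8 ranked below RCBTB2 with the intergenic guide and above it with the NRF1 guide. The 4 genes were chosen on this contrast, so no test is given for it and the separation of the guides supports nothing further. How many of all genes were separated in this way was not counted. For orientation, 1.13% of the 17743 genes tested were called higher over all 3 editors (adjusted p under 0.05 and log2 fold change over 0.5), and 1.24%, 1.71% and 0.84% in SaABE, SpABE and SpCBE alone.

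Ranked by the smallest of the 3 editors' log2 fold changes among 11162 genes with a mean of at least 5 CPM and a gene symbol, KDM8 (1.86) and TMEM143 (1.47) came first. TCEANC (0.87) and RCBTB2 (0.84) were ranks 7 and 8. Between them lay INO80C (1.12), which belongs to the INO80 chromatin remodelling complex, IFT122 (0.98), a part of the intraflagellar transport complex of cilia, MRPL54 (0.92), a mitochondrial ribosomal protein, and BTD (0.89), the biotinidase that recycles biotin. Just outside were COQ3 (0.795), a methyltransferase of coenzyme Q synthesis, and the transcription factor ATF5 (0.79). A strict 2-fold in each editor was met by 3 genes, KDM8, TMEM143 and INO80C. A lower bound of 0.8 on the log2 scale was met by 8 genes, with TCEANC and RCBTB2 as the last of them.

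**Figure D2:**
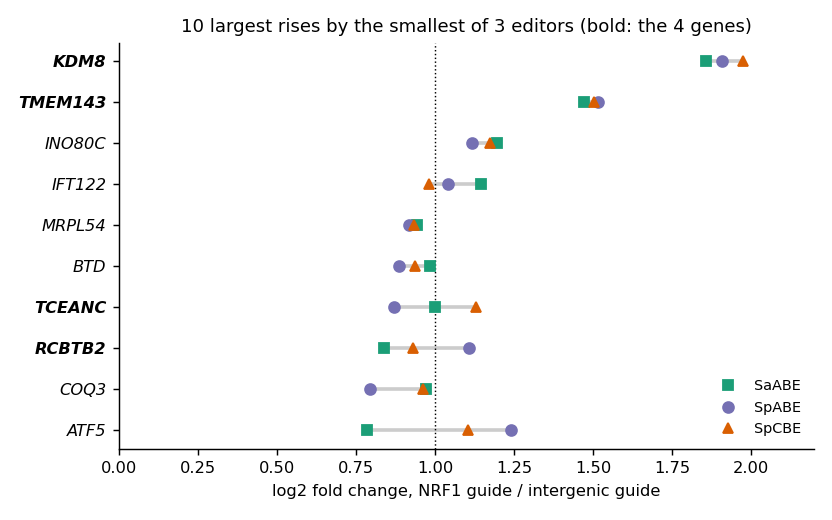
Log2 fold change of NRF1 guide over intergenic guide (x axis) in SaABE (squares), SpABE (circles) and SpCBE (triangles) for the 10 genes with the largest smallest-of-3 value (y axis), with the 4 chosen genes in bold and a dotted line at 2-fold. KDM8 lies between 1.86 and 1.97 and TMEM143 between 1.47 and 1.51, while the symbols of TCEANC and RCBTB2 fall on both sides of the line.

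The size of the difference varied little between editors for KDM8 and TMEM143 and more for the others. For KDM8 the editors' log2 effects differed by at most 0.12 (SE 0.12, SaABE minus SpCBE -0.12, 95% interval -0.36 to 0.13). The effect on TCEANC was 0.26 lower in SpABE than in SpCBE (SE 0.13, interval of the difference -0.51 to -0.01). For RCBTB2 the SaABE effect was 0.27 below that of SpABE (SE 0.10, interval of the difference -0.47 to -0.07). These differences are built from the contrasts that chose the genes and are given as values only.

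The levels within each guide were also set side by side between editors. They enter the rises by which the genes were chosen, so they are given as values with their SE or 95% interval and without a test. With the intergenic guide, RCBTB2 averaged 9.50 ± 0.63 CPM in SaABE cells and 7.58 ± 0.13 CPM in SpABE cells (SD, n = 3 each), a log2 difference of 0.33 (SE 0.08, interval 0.18 to 0.48). SpABE minus SpCBE, where the intergenic guide is the same and SpCBE cells held 9.46 ± 0.66 CPM, was -0.32 (SE 0.08, interval -0.47 to -0.17). The 3 SpABE libraries lay below all libraries of the other intergenic groups. Of all genes tested, 38.4% passed an adjusted p of 0.05 by edgeR for intergenic SaABE minus SpABE, and 35.5% for SpABE minus SpCBE. With the NRF1 guide the same contrasts of RCBTB2 were 0.06 (interval -0.07 to 0.19) and -0.15 (interval -0.27 to -0.02), and the SpABE libraries overlapped the other groups. Intergenic levels of KDM8 and TMEM143 differed between editors by -0.14 to 0.14 on the log2 scale, and the libraries overlapped except for TMEM143 between SaABE and SpCBE. For TCEANC, SaABE minus SpABE was -0.21 (interval -0.41 to -0.01), and its groups overlapped too.

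Among the NRF1-guide groups TCEANC stood at 7.66 ± 0.09 CPM in SaABE, 8.09 ± 0.17 CPM in SpABE and 9.48 ± 0.33 CPM in SpCBE (SD, n = 3 each). SaABE minus SpCBE was -0.31 on the log2 scale (SE 0.09, interval -0.48 to -0.14) and SpABE minus SpCBE -0.23 (SE 0.08, interval -0.39 to -0.06). KDM8 averaged 22.9 ± 2.30 CPM in SaABE, 26.2 ± 0.26 CPM in SpABE and 25.7 ± 1.14 CPM in SpCBE, and its SaABE libraries lay below those of SpABE. Its SaABE minus SpABE difference was -0.19 (SE 0.07, interval -0.33 to -0.05), and -0.12 without SaABE NRF1 replicate 1, the lowest library. TMEM143 had log2 differences from -0.02 to 0.13 and RCBTB2 from -0.15 to 0.06. Editor, guide sequence and the share of edited cells cannot be told apart in these contrasts, nor can the splice site in those with SaABE.

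The promoter windows of the 4 genes were read to see whether they carry NRF1-type sequence, because NRF1 binds such elements. The RefSeq windows (GRCh38.p14) run from 250 bases before to 50 bases after an annotated start, in the direction of the gene, and position 1 is the start. Capitals mark matches to 3 motifs on either strand: the NRF1 core, GCGCA and GCGC with any base between them, TGCGCA, the arm of the NRF1 palindrome, and GCGCATGC, an 8-base stretch added after these sequences had been seen.
KDM8, chr16:27203276-27203575, plus strand: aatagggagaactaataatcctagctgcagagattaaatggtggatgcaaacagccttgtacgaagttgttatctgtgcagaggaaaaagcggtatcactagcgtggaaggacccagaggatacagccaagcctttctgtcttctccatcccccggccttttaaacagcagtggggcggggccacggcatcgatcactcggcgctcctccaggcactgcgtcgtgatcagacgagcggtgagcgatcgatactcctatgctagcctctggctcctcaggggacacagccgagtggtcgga
TMEM143, chr19:48363891-48364190, minus strand: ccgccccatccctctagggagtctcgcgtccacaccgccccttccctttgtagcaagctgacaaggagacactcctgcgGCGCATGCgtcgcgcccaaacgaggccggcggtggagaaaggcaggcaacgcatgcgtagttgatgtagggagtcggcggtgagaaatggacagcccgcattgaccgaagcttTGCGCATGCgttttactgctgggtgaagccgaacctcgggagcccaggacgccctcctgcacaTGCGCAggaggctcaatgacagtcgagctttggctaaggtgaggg
TCEANC, chrX:13652891-13653190, plus strand: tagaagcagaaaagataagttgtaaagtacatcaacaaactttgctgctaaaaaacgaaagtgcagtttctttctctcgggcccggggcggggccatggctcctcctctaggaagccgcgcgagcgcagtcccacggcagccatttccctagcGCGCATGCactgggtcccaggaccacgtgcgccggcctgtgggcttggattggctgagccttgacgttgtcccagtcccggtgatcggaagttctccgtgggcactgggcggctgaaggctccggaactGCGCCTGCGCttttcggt
RCBTB2, chr13:48533031-48533330, minus strand: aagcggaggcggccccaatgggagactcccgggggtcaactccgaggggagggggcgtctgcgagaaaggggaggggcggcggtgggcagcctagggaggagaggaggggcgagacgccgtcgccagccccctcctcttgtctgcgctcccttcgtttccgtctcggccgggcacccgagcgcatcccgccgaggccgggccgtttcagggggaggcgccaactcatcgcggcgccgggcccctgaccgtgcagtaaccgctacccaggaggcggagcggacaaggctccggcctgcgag

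Only exact matches were searched. The full NRF1 core was found in the TCEANC window, on the minus strand at positions 33 to 42 after the start, and in none of the other 3 windows shown. It occurs in 5.78% of all 35116 RefSeq windows of that length. TGCGCA, in 8.24% of all windows, was found in the TMEM143 window, at -58 to -53 and at 6 to 11. GCGCATGC, in 3.05% of all windows, lay at -171 to -164 and -57 to -50 of TMEM143, the second overlapping a TGCGCA match, and at -97 to -90 of TCEANC. GCGCATGC is the start of the NRF1 core with T as the free base. Both TMEM143 matches are followed by GT, so they depart from the full core only in its last base. The windows shown for KDM8 and RCBTB2 held no exact match to the 3 motifs. RCBTB2 has a further annotated start with a window at chr13:48535846-48536145, also without a match. GC content was 54.7% for KDM8, 62.0% for TMEM143, 59.3% for TCEANC and 73.0% for the RCBTB2 window shown, against a median of 58.7% over all windows. A match is a description of sequence and does not show binding.

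**Figure D3:**
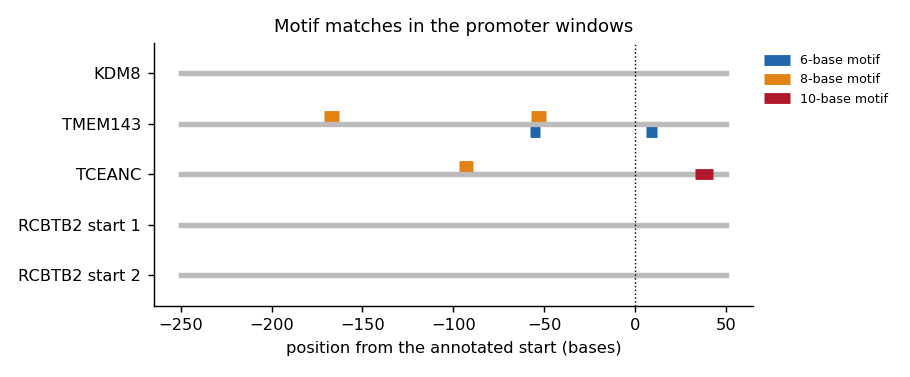
Promoter windows (grey lines, 250 bases before to 50 after the start) of KDM8, TMEM143, TCEANC and the 2 annotated starts of RCBTB2 (y axis), with matches to the 6-base, 8-base and 10-base motifs as coloured blocks against distance from the start in bases (x axis). Matches appear in the TMEM143 window (4) and the TCEANC window (2), and the KDM8 and RCBTB2 windows are empty.

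Genes next to the 4 were measured to see whether the differences reached over the locus. The annotation gave 15 neighbours, taken as genes that overlap or lie within 20 kb and the nearest protein-coding gene on each side. Of these 13 were in the table and 8 had enough counts to test. edgeR called 0 of the 8 higher, where 1.13% of all genes were, and 1 lower, where 4.37% were. DESeq2 called 0 and 1. Past the adjusted p alone, 3 were higher, where 20.6% of all genes were, and 1 lower, where 18.8% were. At an unadjusted p of 0.05, 3 were higher and 1 lower, and the share of all genes there was not counted.

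Next to KDM8, NSMCE1, a subunit of the SMC5-SMC6 repair complex that ends 3.23 kb beyond it on the other strand, averaged 27.5 ± 2.16 CPM with the NRF1 guide and 25.5 ± 1.57 CPM with the intergenic guide (SD, n = 9 each). Its log2 fold change of 0.11 (SE 0.03, adjusted p = 0.00412 by edgeR) had an adjusted p of 0.117 without the editor term. AC109449.1, a long non-coding RNA antisense to KDM8 and inside it, was the gene called lower, at 0.21 ± 0.11 CPM with the NRF1 guide and 0.36 ± 0.13 CPM with the intergenic guide (log2 fold change -0.75, SE 0.27, adjusted p = 0.0313 by edgeR). It rested on 2 to 18 counts per library with overlapping ranges, and its fold change was -0.08 in SpABE. The call was lost with the replicate block (adjusted p = 0.0624), without the editor term (0.103), and without any 1 of SaABE NRF1 replicates 1 and 3, SaABE intergenic replicate 2, SpABE intergenic replicate 1, SpCBE NRF1 replicate 3 and SpCBE intergenic replicates 2 and 3, where the adjusted p was at most 0.0741. C16orf82, on the far side of KDM8, had 0 counts in all 18 libraries.

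TMEM143 starts 308 bases from SYNGR4, a synaptogyrin gene that runs the other way. SYNGR4 stood at 0.21 ± 0.05 CPM with the NRF1 guide and 0.30 ± 0.14 CPM with the intergenic guide (log2 fold change -0.52, SE 0.28, adjusted p = 0.159 by edgeR), at 3 to 18 counts per library. EMP3, an epithelial membrane protein gene 1.80 kb past the end of TMEM143, held 7.82 ± 1.14 CPM with the NRF1 guide and 8.004 ± 1.44 CPM with the intergenic guide (log2 fold change -0.03, adjusted p = 0.783 by edgeR). KDELR1, a receptor that returns proteins to the endoplasmic reticulum, rose slightly to 257.7 ± 5.66 CPM with the NRF1 guide, against 239.5 ± 8.21 CPM with the intergenic guide (log2 fold change 0.11, SE 0.02, adjusted p = 0.000103 by edgeR). CCDC114, now named ODAD1, a dynein docking gene of cilia, had a fold change of 0.40 (SE 0.23, adjusted p = 0.184 by edgeR) on 7 to 22 counts, and was called higher without SaABE intergenic replicate 2 (0.59, adjusted p = 0.0325).

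RAB9A, a late endosomal GTPase 7.16 kb downstream of TCEANC on its strand, averaged 29.5 ± 1.74 CPM with the NRF1 guide and 29.8 ± 2.06 CPM with the intergenic guide (log2 fold change -0.01, SE 0.03, adjusted p = 0.818 by edgeR). EGFL6, upstream of TCEANC, had 0 to 3 counts. RB1, the retinoblastoma tumour suppressor, overlaps RCBTB2 in the annotation on the other strand and is far more abundant, at 142.2 ± 29.2 CPM with the NRF1 guide and 132.2 ± 15.9 CPM with the intergenic guide. Its fold change of 0.09 (SE 0.03, adjusted p = 0.0402 by edgeR) had an adjusted p of 0.088 with the replicate block and 0.549 without the editor term. It was over 0.05 without any 1 of 9 libraries (all 6 of SaABE, SpABE NRF1 replicate 1, SpCBE NRF1 replicate 1 and SpCBE intergenic replicate 2), with 0.0933 at most. Other genes at RCBTB2 were nearly silent, with 0 to 2 counts for LPAR6, 0 to 3 for AL157813.1 and 0 to 1 for CYSLTR2, and 2 annotated long non-coding RNAs were not analysed here. The library kit keeps strand, but the strand setting of the counting is not given in the sources used here, so reads of KDM8 and AC109449.1, and of RCBTB2 and RB1, may not be fully separated.

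**Figure D4:**
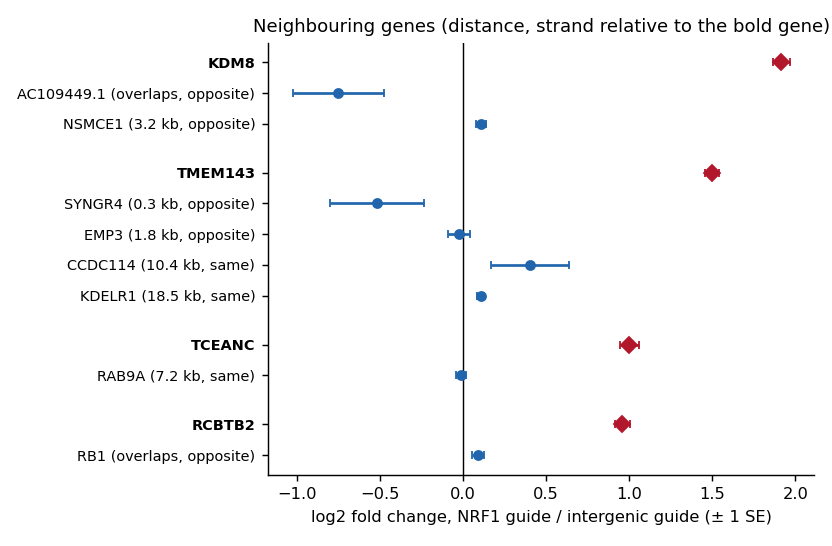
Log2 fold change of NRF1 guide over intergenic guide over all 3 editors (x axis, bars ± 1 SE) for each of the 4 genes (red diamonds, bold) and its tested neighbours (blue circles), labelled with distance and relative strand (y axis). The 4 genes lie between 0.96 and 1.92, the abundant neighbours between -0.03 and 0.11, and the genes with wide bars are those with at most 22 counts per library.

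Genes related to the 4 by domain or partner were counted over all 3 editors, without the 4 themselves. The 62 related genes tested had 0 called higher by edgeR, against 1.13% of all genes, and DESeq2 also called 0 higher in each list. At an unadjusted p of 0.05, 17 were higher and 15 lower, and the share of all genes there was not counted. Past the adjusted p alone, 20.6% of all genes were higher and 18.8% lower, and the median log2 fold change of all genes tested was 0.01.

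Of 25 JmjC-domain oxygenases besides KDM8, 5 were higher and 6 lower past the adjusted p, 0 were called, and the median log2 fold change was -0.02. KDM4C, a demethylase of histone lysines, rose to 20.4 ± 1.12 CPM with the NRF1 guide, against 16.2 ± 0.87 CPM with the intergenic guide (0.33, adjusted p = 4.3e-08 by edgeR). JMJD8, an oxygenase-like protein of the endoplasmic reticulum, rose by 0.32 (adjusted p = 1.03e-09 by edgeR), and JMJD1C fell by 0.20 (adjusted p = 6.14e-06 by edgeR). RIOX1, a ribosomal oxygenase gene listed at 0 to 2 counts, was not tested. Of 3 known partners or substrates of KDM8, RPS6, a ribosomal protein, rose by 0.18 (adjusted p = 3.09e-08 by edgeR), and PKM, pyruvate kinase, by 0.05 (adjusted p = 0.0138 by edgeR). RCCD1, which binds KDM8, stood at 26.9 ± 1.51 CPM with the NRF1 guide and 25.9 ± 0.92 CPM with the intergenic guide (adjusted p = 0.131 by edgeR). With the replicate block, and also without the editor term, 1 of the 3 passed the adjusted p.

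Of 8 other proteins with a TFIIS N-terminal domain, 4 were higher and 1 lower past the adjusted p, 0 were called, and the median was 0.06. IWS1, a partner of elongation factor SPT6, rose by 0.15 (adjusted p = 9.73e-07 by edgeR), MED26, a Mediator subunit, by 0.17 (adjusted p = 0.000181 by edgeR), and PPP1R10, a nuclear targeting subunit of protein phosphatase, by 0.08 (adjusted p = 0.00701 by edgeR). TCEANC2, the gene named most like TCEANC and shown here for that name and not by the naming rule, had 36.4 ± 4.05 CPM with the NRF1 guide and 39.1 ± 4.06 CPM with the intergenic guide. It was the single lower gene (-0.10, adjusted p = 0.0351 by edgeR). No list member was lower past the adjusted p with the replicate block, without the editor term or under upper-quartile scaling. The same held on leaving out any 1 of 12 libraries.

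Of 17 other RCC1-repeat proteins, 1 was higher and 5 lower past the adjusted p, and the median was 0.00. NEK8 of this list was not analysed here. MYCBP2, a very large ubiquitin ligase with an RCC1-like domain, was the call, falling to 99.0 ± 6.53 CPM with the NRF1 guide, against 175.1 ± 8.51 CPM with the intergenic guide (-0.82, SE 0.03, adjusted p = 1.51e-16 by edgeR), where 4.37% of all genes were called lower. RCC1, the exchange factor of Ran, fell by 0.28 (adjusted p = 1.63e-11 by edgeR) and RCC2 by 0.12 (adjusted p = 9.43e-06 by edgeR), while NEK9, a mitotic kinase, rose by 0.10 (adjusted p = 0.00178 by edgeR). RCBTB1, the closest relative of RCBTB2 and also shown outside the naming rule, had 35.2 ± 2.17 CPM with the NRF1 guide and 34.8 ± 3.02 CPM with the intergenic guide (0.02, adjusted p = 0.717 by edgeR).

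Of 10 other mitochondrial proteins with TMEM names, 4 were higher and 1 lower past the adjusted p, and the median was 0.03. TMEM70, an assembly factor of ATP synthase, was called lower, at 19.5 ± 2.06 CPM with the NRF1 guide and 36.1 ± 3.09 CPM with the intergenic guide (-0.88, SE 0.03, adjusted p = 1.57e-17 by edgeR). The complex I assembly genes TMEM126A and TMEM126B rose by 0.29 (adjusted p = 2.34e-06 by edgeR) and 0.18 (adjusted p = 9.66e-05 by edgeR), and TMEM186 rose by 0.17 (adjusted p = 0.00278 by edgeR). TMEM143 and TMEM70 stood at opposite ends of their list, where the place of TMEM143 follows from the choosing rule.

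**Figure D5:**
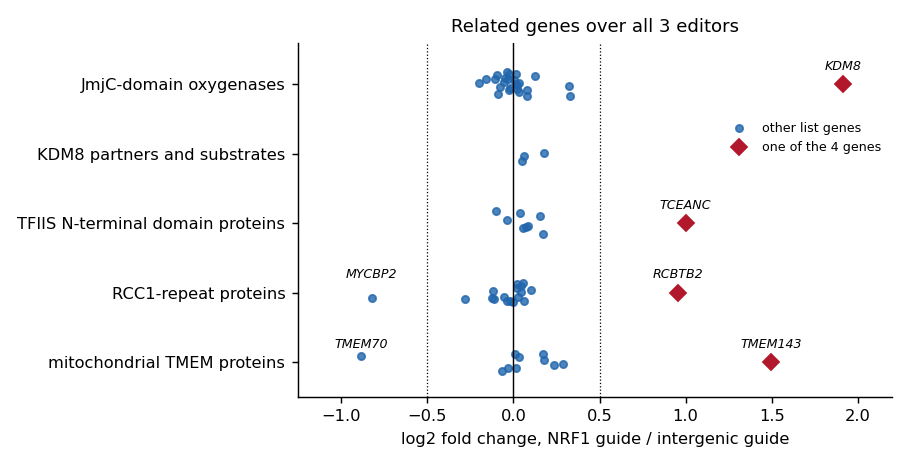
Log2 fold change of NRF1 guide over intergenic guide over all 3 editors (x axis, dotted lines at -0.5 and 0.5) for the tested genes of 5 lists (y axis), with KDM8, TCEANC, RCBTB2 and TMEM143 as red diamonds and other list genes as blue circles. The blue circles lie within the dotted lines except MYCBP2 at -0.82 and TMEM70 at -0.88.

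The genes whose log2 CPM tracked each of the 4 best over the 18 libraries were found among the same 11162 genes, as a description, since all points share the libraries and the difference between guides. KDM8 was most like INO80C (Pearson r = 0.992), MRPL54 (0.986) and IFT122 (0.982), and TMEM143 most like MRPL54 (0.993), INO80C (0.986) and BTD (0.982). TCEANC was most like IFT122 (0.974), BTD (0.967) and INO80C (0.957). RCBTB2 had other companions, namely ATF5 (0.979), EI24, an autophagy-linked membrane protein (0.972), and ADI1, an enzyme of methionine salvage (0.958). EI24 and ADI1 differed far less between the guides than RCBTB2 did, at 306.3 ± 9.54 CPM with the NRF1 guide and 257.8 ± 12.4 CPM with the intergenic guide for EI24, and at 151.0 ± 3.72 CPM with the NRF1 guide and 127.1 ± 3.31 CPM with the intergenic guide for ADI1. Between the 4 genes themselves r ran from 0.923, for TCEANC and RCBTB2, to 0.983, for KDM8 and TMEM143.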

How the data were processed

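Sequencing libraries came from a kit that keeps strand, per the labels. Reads were cut with cutadapt 1.18 and aligned to hg38 and GENCODE 30 with STAR 2.7.0f by the authors. The submitters' notes also name DESeq2 1.46.0. How reads were counted, and with which strand setting, is not given in the sources used here. The deposited values are estimated counts of each gene without normalization by the authors, and 19.63% of the nonzero ones had a fraction. Rounding preceded the count tests, which had been planned for whole counts. Of 36 sample columns, 18 were used and 18 were not.

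Genes passing filterByExpr (17743) were TMM-scaled and tested in edgeR 4.0.16 (R 4.3.3) by quasi-likelihood, with Benjamini-Hochberg adjustment over all genes. The comparison over all 3 editors used the editor as an additive term, and contrasts within or between editors used 6 group means. The steps were tested on simulated data. A call needs both an adjusted p below 0.05 and a log2 fold change beyond 0.5 in either direction. Intervals are normal 95% intervals. Alternatives were DESeq2 1.42.0, upper-quartile scaling, other filters, a replicate block, no editor term and leaving out each library. Positions came from GENCODE 44, where 58472 of 58870 identifiers matched, and promoters from RefSeq.

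The 4 genes and all lists were chosen with earlier results of these data known. Named genes were the 4, NRF1, all neighbours, called list genes with up to 3 others of smallest p per list, the 3 most correlated genes per member, and the 10 largest smallest-of-3 effects. Nothing says that replicates were separate cultures, so p-values measure only how far these libraries vary among themselves, possibly for technical reasons. Replicate pairs differed by more than sampling noise. Deviations from the mean of each group of 3 were correlated between the guides over 8843 genes. These correlations cannot decide whether libraries within an editor are independent, since the deviations within a group cancel out and are tied to each other. Independence is therefore not assured. In SpABE, same-numbered libraries of both guides had r = 0.159, 0.114 and 0.127, but the labels state no pairing and none was tested. In SaABE the same-numbered values were -0.387, -0.345 and -0.07, with 0.339 and 0.348 for replicates 1 and 2 crossed, and in SpCBE 0.031, 0.042 and 0.102. The replicate block joins same-numbered libraries in all 3 editors. Planned tests of the 4 genes between editors within a guide are given as values only, since the choosing rule drew on these levels. The 95% intervals cover the fit's error only.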

Additional observations from a re-analysis of the deposited data

Results flagged for a closer look

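The effect of the NRF1 guide was compared between editors for 26 named genes outside the 4, in 78 differences by edgeR with Benjamini-Hochberg adjustment over all genes, and 10 passed an adjusted p of 0.05. NRF1 itself had a log2 effect of 0.32 in SaABE and 0.69 in SpCBE, a difference of -0.37 (SE 0.08, adjusted p = 0.00667). Its levels with the NRF1 guide were alike, at 40.24 CPM in SaABE and 40.51 CPM in SpCBE (log2 difference -0.009). With the intergenic guide, which differed in sequence, they were 32.23 CPM in SaABE and 25.15 CPM in SpCBE. That log2 difference was 0.36 (SE 0.06, adjusted p = 1.85e-05 by edgeR). SpABE minus SpCBE, where the intergenic guide was the same, was 0.16 (SE 0.06, adjusted p = 0.0335 by edgeR). The part of the guide sequence in these differences was not tested. RB1, which overlaps RCBTB2, had an effect of 0.23 in SaABE and -0.06 in SpABE, a difference of 0.29 (SE 0.06, adjusted p = 0.00127). RPS6 differed by 0.11 between SaABE and SpABE (adjusted p = 0.0358). SaABE minus SpABE was also -0.18 for MED26 (adjusted p = 0.0418), -0.16 for PPP1R10 (adjusted p = 0.0156), -0.12 for RCC2 (adjusted p = 0.0217) and -0.17 for NEK9 (adjusted p = 0.0108). SpABE minus SpCBE was 0.25 for MED26 (adjusted p = 0.00774), 0.14 for PPP1R10 (adjusted p = 0.0307) and 0.14 for NEK9 (adjusted p = 0.0469). Over all genes tested, 11.7%, 4.09% and 8.96% passed this adjusted p for SaABE minus SpABE, SaABE minus SpCBE and SpABE minus SpCBE.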

How the results depend on the processing

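Each result was recomputed under up to 24 alternatives, and no called value changed sign. For KDM8, TMEM143, TCEANC and RCBTB2, the 16 values of NRF1 guide against intergenic guide moved by less than the spread between replicates under all 24, except KDM8 in SaABE without SaABE intergenic replicate 3 (1.99, with 1.78 to 1.99 over the left-out libraries). NRF1 over all 3 editors ranged from 0.46 to 0.51 with a library left out, past the fold threshold without SaABE NRF1 replicate 2, SaABE intergenic replicate 1 or SpABE NRF1 replicate 1, and NRF1 in SpABE from 0.39 to 0.50. With a library left out, neighbours called higher ranged from 0 to 1, neighbours called lower from 0 to 1, TFIIS-domain genes lower from 0 to 1, RCC1-repeat genes higher from 1 to 2, and mitochondrial TMEM genes lower from 1 to 2.

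The replicate block, which pairs same-numbered libraries within an editor, left 0 neighbours called lower, 1 KDM8 partner higher and 0 TFIIS-domain genes lower, and it moved no other count of the lists by over 1.5 times. Without the editor term these 3 counts were 0, 1 and 0, and the counts higher fell to 2 JmjC and 1 TFIIS-domain genes and the RCC1-repeat count lower to 3. A filter of at least 1 CPM in 9 libraries left 0 neighbours called lower, since the sparse antisense gene was then not tested, and upper-quartile scaling left 0 TFIIS-domain genes lower. With the block, 170 genes were called higher and 753 lower over all 3 editors, against 200 and 776. That filter gave 81 and 581, no editor term 121 and 712, and no filter 266 and 866. The share of lower calls was 79.5%, and 87.8% with the filter. Searching GCGCATGC, chosen after the sequences were seen, gave a match in 2 of the 4 genes, against 1 for the NRF1 core. TCEANC had the fewest counts of the 4 genes, 100 to 190 in intergenic libraries.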
